A study of Mus musculus with 12 samples.

Results

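The 10 genes described here are regulators and markers of endothelial and blood cells: Kdr, Flt1, Tek, Pecam1, Cdh5, Tal1, Lmo2, Etv2, Erg and Fli1. They were chosen by name, as genes of a fate that arises beside the cardiac one, and each BRG1-binding region at their promoters, in their bodies or within 100 kb of them was collected. All 10 were found among the 22380 protein-coding genes of the annotation, and 2 of the 3473 distinct BRG1 regions of the list labelled as that of CPs lay within 100 kb of them. BRG1 is the ATPase of BAF chromatin remodeling complexes, and ChIPseq recovers the DNA to which it is crosslinked. The cells were wild type mouse ES cells of the W4/129S6 strain, grown as embryoid bodies with VEGF, Activin and BMP4 and then as monolayers with FGFs until they were cardiac precursors (CPs). Their chromatin was crosslinked with disuccinimidyl glutarate and formaldehyde and digested with MNase. 2 BRG1 ChIP libraries and 1 input library stood behind the list of regions, and the other 9 libraries of the series, which come from cardiomyocytes and from lines without BAF60c or BAF170, were not used here. All values describe cells differentiated in culture from ES cells of a single strain.

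The deposited list gives the position of each region on the mouse assembly mm9 without any measure of its strength. Its label names wild-type CPs and its number of rows is that stated for CPs in the study. Its number of distinct regions, however, is that stated for cardiomyocytes, and whether the distinct regions are those of CPs could not be checked from positions, so the stage rests on the label for every count below. The depth of the libraries is unknown from it, and no value below has an error between replicates. A gene without a listed region may be unbound or below the threshold of the authors. Expression was not used here, so the identity of the cells could not be checked against these markers, and all counts are descriptions without a test.

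Endothelial and blood cells arise in the embryo from mesoderm that carries the VEGF receptor Kdr, and cardiac precursors come from Kdr-positive mesoderm as well. Etv2, an ETS factor, starts the endothelial and blood program in that mesoderm, and Tal1 and Lmo2 act with GATA factors in a complex that commits cells to blood. Erg and Fli1, also ETS factors, maintain endothelial identity, and Cdh5, Pecam1, Tek and Flt1 mark the endothelial cells that result.

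None of the 10 genes had a BRG1 region at a promoter, defined as 1 kb either side of an annotated transcription start site (TSS), while 11.9% of protein-coding genes had one. That count covers 41 TSS positions of the 10 genes. In the gene body away from promoters, 1 of the 10 genes had a region, Tal1, against 1.85% of protein-coding genes. Within 100 kb of the gene, 2 of the 10 had a region, Tal1 and Cdh5, against 40.3% of protein-coding genes. The windows of the 10 genes together covered 2.87 Mb and held 0.696 regions per Mb, and the merged windows of all protein-coding genes held 1.8 per Mb. With 200 kb in place of 100 kb, 7 of the 10 genes had a region, against 55.5% of protein-coding genes, and with 500 kb 9 of the 10, against 74.2%. The map of regions around the genes shows that the windows of 8 genes were empty.

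**Figure D1:**
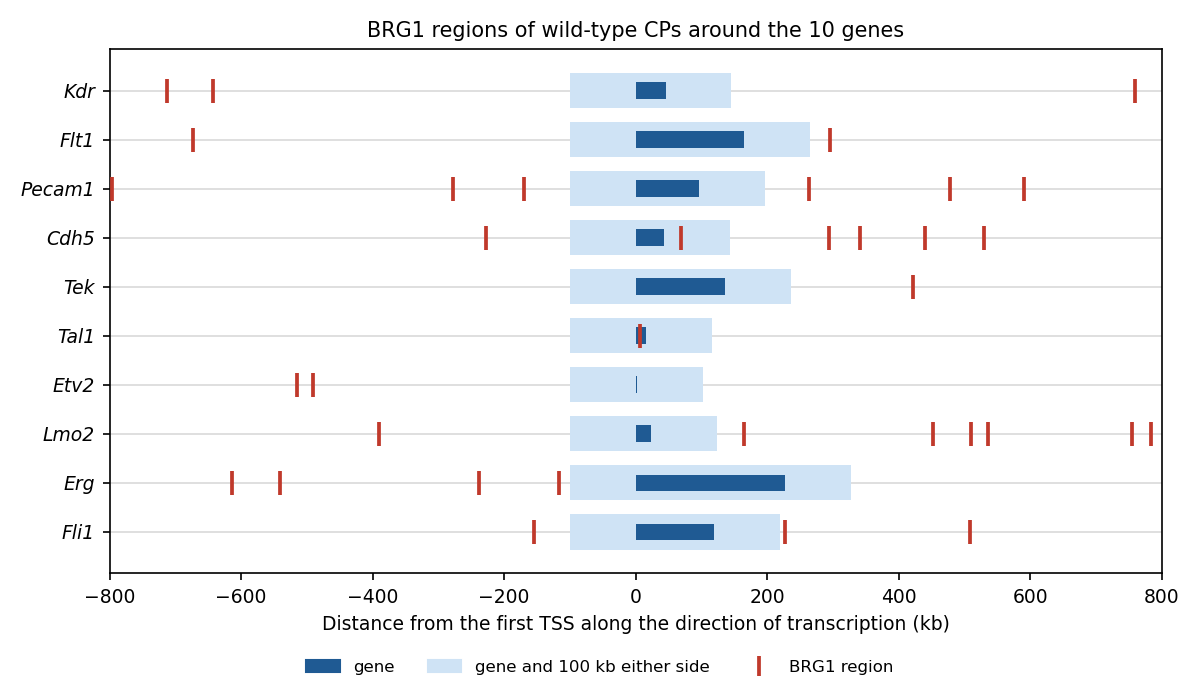
BRG1 regions of wild-type CPs (red ticks) around each of the 10 genes, by the distance in kb from the first TSS along the direction of transcription, with the gene in dark blue and the gene with 100 kb either side in light blue. Ticks fall inside the light blue windows of Cdh5 and Tal1 and outside those of the other 8 genes.

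None of the receptors had a region within 100 kb. Kdr, the main signalling receptor for VEGF, was the farthest of the 10, at 643 kb from the midpoint of its nearest region, which lay upstream at the promoter of Cep135. For 78.4% of protein-coding genes a region was nearer than that. No other protein-coding gene starts within 100 kb of Kdr, and none of the 6 that start within 500 kb had a region at a promoter. Flt1, a VEGF receptor that binds the ligand tightly and limits its action, had its nearest region 295 kb from the first TSS, past the 3' end of the gene at the promoter of Pan3. From an internal TSS of Flt1, that of a transcript annotated as not coding, the distance was 185 kb. Tek, the angiopoietin receptor also known as Tie2, was 357 kb from its nearest region by its closest TSS and 422 kb by the first TSS. That region, chr4:94827866-94828365, lay away from promoters, within the noncoding gene BC042782. By the closest TSS, a region was nearer for 52.5% of protein-coding genes than for Flt1, and for 66.9% than for Tek. That rank of Flt1, close to the middle of all genes, rests on its internal TSS. A region lay within 297 kb of the closest TSS for 63% of protein-coding genes. That distance is close to the 295 kb from the first TSS of Flt1, but distances from the first TSS were not ranked over all genes.

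The promoters of these receptors differ in sequence. The 200 bases upstream of the first TSS of Kdr and Flt1 are shown beside those of Tek, since none of the 3 had a BRG1 region although Kdr and Flt1 are rich in CpG dinucleotides there and Tek is not. All are from mm9 and are written 5' to 3' on the strand of the gene, with CpG in capitals. They are Kdr at chr5:76374484-76374683 on the minus strand with 16 CpG, Flt1 at chr5:148537588-148537787 on the minus strand with 18, and Tek at chr4:94405780-94405979 on the plus strand with 1.
Kdr: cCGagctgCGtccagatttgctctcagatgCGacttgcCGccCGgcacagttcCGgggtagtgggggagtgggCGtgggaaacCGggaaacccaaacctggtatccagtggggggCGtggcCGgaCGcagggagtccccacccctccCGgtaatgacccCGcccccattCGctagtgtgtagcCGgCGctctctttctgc
Flt1: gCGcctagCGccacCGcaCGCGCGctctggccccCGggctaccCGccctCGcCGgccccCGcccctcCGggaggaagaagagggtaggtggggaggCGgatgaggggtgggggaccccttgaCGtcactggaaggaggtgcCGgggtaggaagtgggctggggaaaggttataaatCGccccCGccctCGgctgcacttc
Tek: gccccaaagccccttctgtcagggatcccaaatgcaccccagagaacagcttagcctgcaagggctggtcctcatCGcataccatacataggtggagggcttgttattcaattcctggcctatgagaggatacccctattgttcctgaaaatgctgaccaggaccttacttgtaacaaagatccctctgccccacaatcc

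Of the junction proteins, Cdh5 had a region within 100 kb and Pecam1 did not. Cdh5 encodes VE-cadherin, the cadherin of endothelial junctions. The region near it, chr8:106694666-106694845, was 180 bp wide and began 26.3 kb past the 3' end of the gene, 69.2 kb from the TSS. It lay 0.343 kb from a TSS of the next gene, Bean1, within an annotated untranslated exon of that gene. Its GC content was 79.4% and it held 27 CpG. Bean1 is the only protein-coding gene that starts within 100 kb of Cdh5, and within 500 kb 5 of 18 such genes had a region at a promoter: Bean1, Cmtm4, Dync1li2, Car7 and Rrad. Pecam1, an adhesion molecule of endothelial cells, platelets and leukocytes, was 170 kb from its nearest region, upstream at the promoter of Smurf2. On the other side a region at the promoter of Ern1 lay 166 kb from the 3' end of Pecam1. The promoters of 5 of the 24 protein-coding genes that start within 500 kb of Pecam1 had a region, and none of the 5 that start within 100 kb.

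Tal1, the basic helix-loop-helix factor required for blood formation, was the only member with a region inside the gene. The region, chr4:114735806-114736125, was 320 bp wide and was listed once. Its midpoint lay 6.93 kb from the first TSS and 3.85 kb from the nearest of the 4 annotated TSSs of Tal1. For 12.6% of protein-coding genes a region was nearer. It lay wholly in coding sequence, in exon 3 of transcripts Tal1-001, Tal1-002 and Tal1-003 and in exon 2 of Tal1-004. In all 4 transcripts the coding sequence begins in this exon. The region starts 70 bp after the first coding base. It covers 71.7% of the 446 coding bases that the exon has in Tal1-001, Tal1-003 and Tal1-004. In Tal1-002 the exon has 440 coding bases. Of the 907 regions that lay away from promoters, 39 (4.30%) overlapped coding sequence.

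The base composition of the Tal1 region was closer to that of regions at promoters. Its GC content was 76.2%, compared with medians of 74.1% for the 2566 regions at promoters and 54.5% for the 907 away from them. Its CpG ratio, the number of CpG observed divided by that expected from its C and G, was 0.866, compared with medians of 0.903 and 0.280. Of the 907 regions, 92.1% had a lower GC content and 85.6% a lower CpG ratio. The 300 bases at its center, chr4:114735816-114736115 of mm9 on the plus strand, are shown because this is the only region inside any of the 10 genes. Capitals mark CAGCTG, an E-box word of the kind that helix-loop-helix factors bind, which starts at base 278.
Tal1: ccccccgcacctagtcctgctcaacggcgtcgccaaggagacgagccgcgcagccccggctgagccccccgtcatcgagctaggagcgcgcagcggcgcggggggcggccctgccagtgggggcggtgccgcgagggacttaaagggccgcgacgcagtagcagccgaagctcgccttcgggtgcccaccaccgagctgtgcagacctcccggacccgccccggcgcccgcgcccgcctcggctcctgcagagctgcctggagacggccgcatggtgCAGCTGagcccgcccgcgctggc

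Words for ETS factors (CCGGAA and also CAGGAA), for GATA factors (AGATAA), for E-box proteins (CAGCTG and also CATCTG), for SOX factors (ACAAAG) and for T-box factors (AGGTGTGA) were searched on both strands in 300 bp around the midpoint of each region. CAGCTG, which reads the same on both strands, was the only one of the 7 words in the Tal1 window. It was present in 16.9% of all regions and in 24.4% of those away from promoters. The 300 bp window at Bean1 held CAGGAA, as did the windows of 20.4% of all regions, and none of the other 6 words. The region itself, 180 bp wide, held none of the 7. Over the 300 bp windows of the nearest regions of all 10 genes, both E-box words and the ETS word of the Bean1 window were found in 1 window each and the other 4 words in none. These counts depended on the window, as 3 of the 10 nearest regions held any word in 300 bp, 6 over the whole region as listed and 9 in 500 bp, against 56.7%, 61.6% and 73.9% of all regions. Over the whole regions, CCGGAA was found in the nearest region of Flt1 (18.2% of all regions as listed), the GATA word in that of Tek (10.1%) and the SOX word in that of Pecam1 (18.7%). The other ETS word was in those of Flt1 and Pecam1 (27% of all), CAGCTG in those of Tal1 and Etv2 (23.3%) and the other E-box word in that of Lmo2 (14.3%). With 300 bp windows in place of whole regions, the E-box word CATCTG, again at the nearest region of Lmo2, was present in 11.3% of all regions. In windows of 300 bp, 12.8% of all regions held the ETS word CCGGAA, 13.4% the SOX word, 8.72% the GATA word and 0.72% the T-box word.

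**Figure D2:**
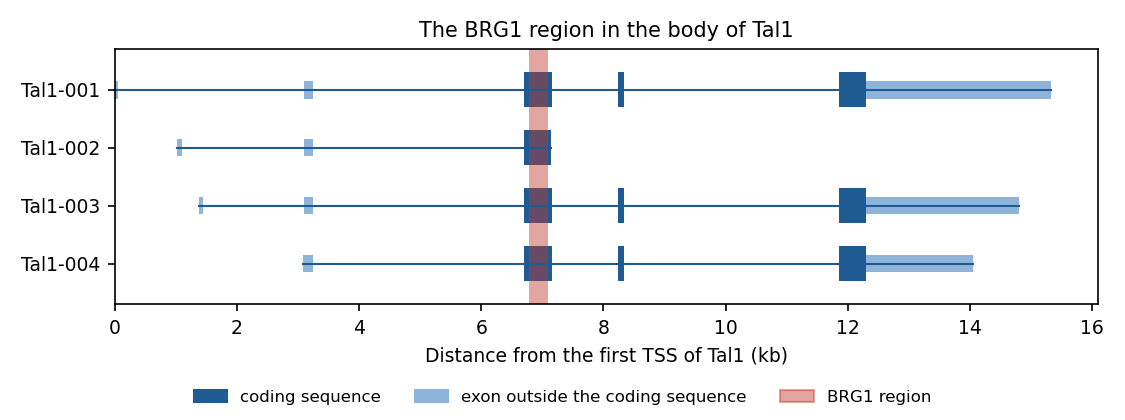
The 4 annotated transcripts of Tal1 by distance in kb from the first TSS, with coding sequence in dark blue, other exons in light blue and the BRG1 region as a red band. The band lies in the first coding exon of each transcript, 6.93 kb from the first TSS.

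Tal1 and the other 4 factors differed widely in their distance to a region. Lmo2, the LIM protein that joins Tal1 to Ldb1, was 152 kb from its nearest region, downstream at the promoter of A930018P22Rik. Etv2 was 490 kb from its nearest region. It lies among many genes, as 18 other protein-coding genes start within 100 kb and 61 within 500 kb. Of the 18, none had a region at a promoter. Etv2 was far from regions in a gene-rich stretch, and Kdr was far from them in a gene-poor stretch.

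Erg and Fli1 each lie next to another ETS gene that had a BRG1 region at a promoter. Fli1 and Ets1 are transcribed away from each other on chromosome 9, with 94.8 kb and 0 protein-coding genes between them. Erg and Ets2 have the same arrangement on chromosome 16, with 115.5 kb and 0 protein-coding genes between them. The region at Ets2, chr16:95923906-95924285, was 380 bp wide and its midpoint lay 0.0115 kb from a TSS. It was the nearest region to Erg, at 116 kb. The region at Ets1, chr9:32503646-32503785, was 140 bp wide and lay 0.0885 kb from an internal TSS of Ets1. It was the nearest region to the TSS of Fli1, at 155 kb. On the 3' side of Fli1 a region of 220 bp lay 108 kb past the end of the gene, chr9:32121666-32121885. It overlapped no annotated gene and held no CpG, as its CpG ratio was 0. This region is the nearest beyond the 100 kb limit, and the region at Bean1 is the farthest inside it. In both pairs the neighbor, Ets1 or Ets2, had a region at a promoter and Fli1 or Erg did not. Both neighbors are also in the wider lists of endothelial and blood genes described below.

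Measured from the closest TSS to the midpoint of the nearest region, the 10 genes had a median distance of 162 kb and a middle range from 125 to 314 kb (quartiles). The 22350 protein-coding genes on chromosomes with regions had a median of 166 kb and a middle range from 46.3 to 533 kb. The medians were close. The lower quartile of the 10 genes was the larger, and Erg, Lmo2, Fli1, Pecam1 and Flt1 fell together between 116 and 185 kb. The nearest region lay at a promoter of another gene for 8 of the 10, the exceptions being Tal1 and Tek, and 73.9% of all regions lay at promoters.

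**Figure D3:**
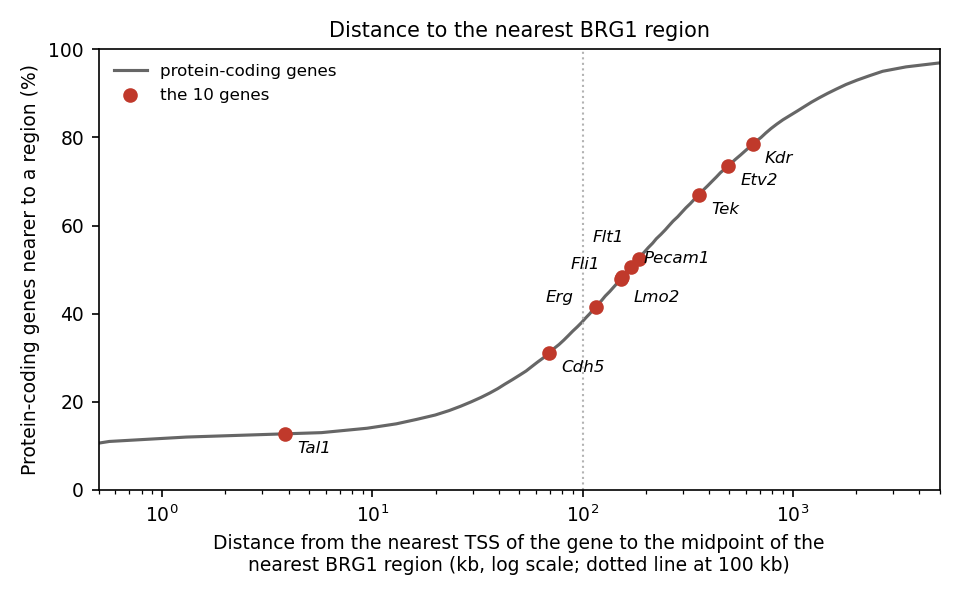
Percentage of protein-coding genes that are nearer to a BRG1 region (y axis) by the distance in kb from the closest TSS to the midpoint of the nearest region (x axis, log scale), as a grey curve, with the 10 genes as red points. Tal1 at 3.85 kb and Cdh5 at 69.2 kb lie left of the dotted line at 100 kb and the other 8 lie right of it.

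Of the 162 other protein-coding genes that start within 500 kb of the 10 genes, 17 had a region at a promoter (10.5%), close to the 11.9% of all protein-coding genes. Of the 39 that start within 100 kb, Bean1 and Ets1 had one (5.13%), a count that largely restates the few regions in these windows. The region of Ets1 itself lay outside the window of Fli1, since it is at an internal TSS. The 10 genes had a median of 3 other protein-coding genes starting within 100 kb, and protein-coding genes as a whole had a median of 4. Kdr, Flt1 and Erg had none, as did 7.81% of protein-coding genes.

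The share of genes with a region at a promoter rose with promoter CpG content over the whole annotation. For each gene the highest CpG ratio over its TSSs was taken, in 500 bp either side. A region at a promoter was present in 0.150% of 5318 genes with a ratio below 0.25, 1.18% of 4156 genes from 0.25 to 0.5, 9.26% of 5701 genes from 0.5 to 0.75 and 28.9% of 7205 genes at 0.75 or more. Cdh5 (0.244) was in the lowest of these classes, and Pecam1 (0.294), Tek (0.317), Etv2 (0.357) and Erg (0.448) were in the next. Kdr (0.665) and Fli1 (0.737) were in the third. Tal1 (0.804), Flt1 (0.811) and Lmo2 (0.905) were in the class with the highest share of promoters with a region. The median over the 10 genes was 0.557, and over all protein-coding genes 0.602. All 10 were without a region at a promoter, in classes with a low share and in the class with the highest. The class of a gene depends on the TSS chosen. With the ratio at the first TSS the shares were 1.31%, 3.72%, 11.2% and 28.9% in the same order, and Lmo2, with a ratio of 0.165 there, fell in the lowest class.

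**Figure D4:**
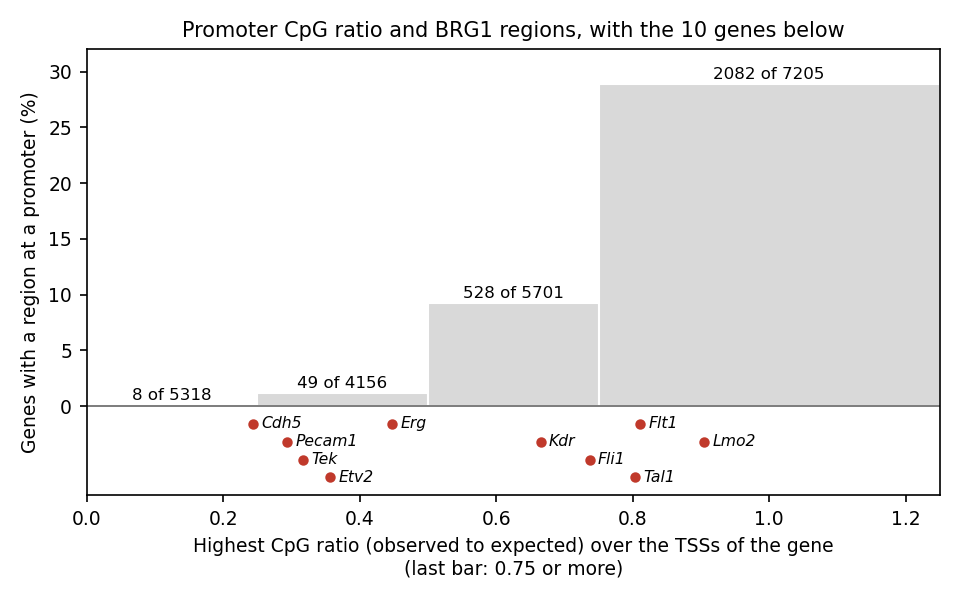
Percentage of protein-coding genes with a BRG1 region at a promoter (bars) in 4 classes of the highest CpG ratio over the TSSs of a gene, with the ratio of each of the 10 genes as a red point below the axis. The share rises from 0.150% to 28.9%, and the 10 genes are spread over all 4 classes.

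The sequence around these genes was mostly unique at the read length of 75 bp. Of the words of that length within 1 kb of the TSSs, 95.9% (Cdh5) to 100% occurred once in mm9 on either strand. In the gene bodies the share was lowest for Tek, at 84.8%, and at least 96.0% for the other 9 genes. In the windows with 100 kb either side it ran from 85.4% (Tek) to 99.2% (Kdr). The windows held no unknown bases (0%).

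In wider lists of endothelial and blood genes, regions at promoters were found for 15 of 65 genes (23.1%) and regions within 100 kb for 34 (52.3%), against 11.9% and 40.3% of protein-coding genes. Ligands and receptors accounted for few of the regions at promoters. Of 8 genes of the VEGF system (Vegfa, Vegfb, Vegfc, Pgf, Flt4, Nrp1, Nrp2 and Plxnd1) none had a region at a promoter and 2 had one within 100 kb, Flt4 and Nrp2. Of Tie1 and the angiopoietins Angpt1 and Angpt2, none had a region at a promoter, and Angpt1 had one within 100 kb. Of the receptors Eng, Acvrl1 and S1pr1 none had a region at a promoter, and Acvrl1 and S1pr1 had one within 100 kb. Of 13 surface and junction markers, Ramp2, which helps receptors of adrenomedullin to the surface, had a region at a promoter (460 bp), and 6 had one within 100 kb. Of 9 Notch pathway and arterial and venous genes, Notch1 (940 bp) and Jag1 (120 bp), a receptor and its ligand, had regions at promoters. The region of Notch1 lay at an internal TSS. Within 100 kb, 5 of the 9 had a region.

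Factors accounted for more of the regions at promoters. Of 6 other ETS factors, 5 had a region at a promoter: Elf1 (1160 bp), Etv6 (780 bp), Ets2 (380 bp), Gabpa and Ets1. Together with Etv2, Erg and Fli1, 5 of the 9 ETS genes listed here had one, against 11.9% of protein-coding genes. Of the 3 that belong to the 10 genes, 0 had one. The other 6 all had a highest CpG ratio of 0.75 or more, a class in which 28.9% of genes had a region at a promoter. Etv2 and Erg were in the class with 1.18% and Fli1 in that with 9.26%. Of 13 blood factors, 5 had a region at a promoter, with widths of 1160 bp at Cbfb, the partner of RUNX proteins, 540 bp at Cbfa2t3, a corepressor, and 520 bp at Runx1, which is required for blood stem cells. The others were Ikzf1, a lymphoid factor, and Ldb1, the partner of Lmo2. The regions of Runx1, Cbfa2t3, Ikzf1 and Ldb1 lay at internal TSSs of these genes, as did that of Ets1. Gata1, Spi1, Lyl1, Myb, Gfi1, Gfi1b, Klf1 and Nfe2 had none. Of 10 SOX, forkhead and other endothelial factors, Foxc1 (2000 bp) and Foxo1 (1280 bp) had a region at a promoter, and 6 of 10 had one within 100 kb. Gata2, the GATA factor of blood stem cells and endothelium, had a region 4.21 kb from a TSS, outside its promoter. In the body away from promoters, 3 of the 65 genes had a region: Hey1, Foxc2 and Cbfa2t3 (4.62%, against 1.85% of protein-coding genes).

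These lists also differed in the CpG content of their promoters. The median of the highest CpG ratio was 0.822 over the other ETS factors and 0.816 over the VEGF genes, 0.646 over 12 blood factors annotated as protein coding and 0.481 over the surface and junction markers. These medians depend on the TSS chosen. With the ratio at the first TSS they were 0.774, 0.757, 0.342 (over all 13 blood factors) and 0.292 in the same order. A ratio of 0.75 or more was present for 6 of 6 other ETS factors and 5 of 8 VEGF genes. Many of the factors with a region, such as Cbfb and Gabpa, are active in most cell types, and the lists were not matched for that.

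**Figure D5:**
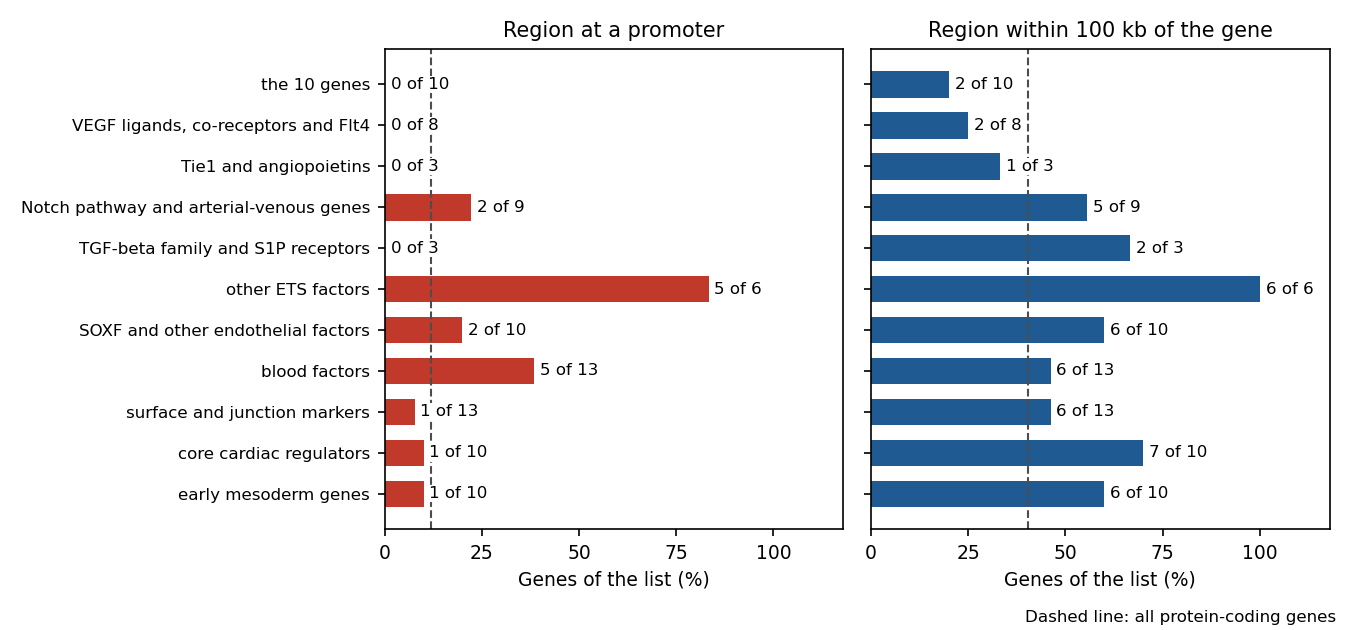
Percentage of genes in each list with a BRG1 region at a promoter (left) and within 100 kb (right), with the number of genes beside each bar and the share of all protein-coding genes as a dashed line. The 10 genes are at 0 of 10 and 2 of 10, left of both lines, and the other ETS factors have the highest share in both panels.

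Genes of the cardiac fate and of early mesoderm were set beside the 10 genes. Of 10 core cardiac regulators, 1 had a region at a promoter, Isl1 (600 bp), 2 had a region in the body, Nkx2-5 and Gata4, and 7 had one within 100 kb. Of 10 early mesoderm genes, 1 had a region at a promoter, Mixl1 (160 bp), and 6 had one within 100 kb. Among these were Mesp1 and Mesp2, which lie side by side. Their windows overlap, so the same region can count for both. At promoters the 3 lists of 10 genes differed by a single gene, and 11.9% of protein-coding genes had a region there. In the body away from promoters 1.85% of protein-coding genes had one. Within 100 kb the endothelial and blood genes had 2 of 10, the early mesoderm genes 6 and the cardiac regulators 7, against 40.3% of protein-coding genes. Within 50 kb the counts were 2, 3 and 6 of 10 in that order, against 28.5%, and within 200 kb they were 7, 8 and 8, against 55.5%. Their median distances from a region were 162 kb, 80.9 kb and 34.0 kb in that order, and the median of the highest CpG ratio was 0.557, 0.649 and 0.642. Mef2c was in the cardiac list and in the wider endothelial list. These lists hold few genes, and the difference between them was not tested.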

How the data were processed

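BRG1 ChIPseq of wild-type CPs was described from 1 deposited list of regions. The authors used fastq-mcf to trim single-end reads and Bowtie to align them to mm9, discarded reads of low mapping quality, and kept the bins in which ChIP exceeded input by their P-value. They deposited chromosome, start and end in 3 columns. Versions of these tools, and how the 2 ChIP libraries were combined, are not given in the sources used here. The list had 4791 rows, and repeated rows were counted once, as 3473 distinct regions. Depth is unknown and no stricter threshold could be tried.

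Starts were read as counted from 0 and are printed counted from 1. Regions were compared with the mm9 sequence and GENCODE release M1 annotation (37310 genes) using samtools 1.23.1 and Python 3.11.15 with pysam 0.24.0, pandas 2.3.3, numpy 2.4.6, numba 0.67.0, scipy 1.17.1 and matplotlib 3.10.9. A region that overlapped a promoter of a gene was counted there and not in its body. Counts within 100 kb take in every region from 100 kb before the gene to 100 kb past it, with those at promoters and in the body. The first TSS is the 5' end of the gene record, and neighboring genes were counted by it. The sorting of regions was checked on 200 genes with planted positions, of which 200 were recovered. Spi1 was matched by its older symbol, and Gfi1 is annotated as a processed transcript.

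The genes and lists were chosen with earlier results of these data known. The genes named were all 10 genes, every gene whose promoter holds a region within 100 kb of them, and the genes of the wider lists with a region at a promoter, with widths for the 3 widest in each list. Genes at the nearest regions farther away, the ETS neighbors, the other genes of the lists and the regions beyond 100 kb were named after their values had been seen, as were the CpG classes, the 50 kb and 200 kb windows for the cardiac and mesoderm genes, the word search over nearest regions, the counts of neighboring genes, the word uniqueness and the upstream sequences. Sequences were limited to 300 bp and to parts not annotated as untranslated, so those of the regions at Bean1, Ets1 and Ets2 are not shown. Some further items are not reported here. Alternatives were other promoter and flank widths, midpoints in place of overlap, the first TSS alone, each row counted, merging of close regions, autosomes alone, the CpG ratio at the first TSS and other word windows.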

Additional observations from a re-analysis of the deposited data

How the results depend on the processing

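Of 31 alternatives to 15 counts, medians and shares, 12 of them chosen after seeing the data, 16 kept the value within 1.5 times, or within the Wilson interval for shares, and 15 did not. With promoters of 5 kb either side, and of 10 kb (chosen after seeing the data), 1 gene had a region, Tal1 in both, against 12.9% and 14.2% of protein-coding genes. Within 200 kb 7 genes had a region, with 9 distinct regions in all, and within 1 Mb (also chosen after seeing the data) 10 genes had one, as did 85.5% of protein-coding genes. Within 50 kb (chosen after seeing the data) 3 early mesoderm genes had one. When regions were kept only if their nearest TSS was that of a member, 1 of the 2 distinct regions was left, that in Tal1. On autosomes alone, 12.4% of protein-coding genes had a region at a promoter and 42.1% within 100 kb. With the region as listed in place of 300 bp, 1 of the 2 regions held a motif word. Among the nearest regions of the 10 genes, 3 held one in 300 bp, 6 as listed and 9 in 500 bp (chosen after seeing the data). With the CpG ratio at the first TSS, also chosen then, the shares of the 3 lower classes were 1.31%, 3.72% and 11.2%. These changes follow from the other windows, TSSs, regions, genes or bases counted. The number of genes at promoters was as given with 1 kb upstream alone, midpoints or the first TSS, the number with a region in the body with midpoints or promoter regions included, and the number within 100 kb with 50 kb or with 100 kb around the first TSS. No paired analysis was possible because 1 list of positions stands for both ChIP libraries, and leaving out a library was not possible for the same reason. The list has no depth, so regions below its threshold are not seen.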
